A study of Mus musculus with 11 samples.

Results

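The genes described here carry homing signals of blood progenitors: the inhibitory G-protein alpha subunits Gnai1, Gnai2 and Gnai3, the chemokine receptor Cxcr4 and its ligand Cxcl12, the sphingosine-1-phosphate receptor S1pr1, the small GTPases Rac1, Rac2 and Cdc42, and Vav1, an exchange factor that activates Rac proteins. They are 10 of the 49939 RefSeq genes on chromosomes 1 to 19, X and Y. The set was chosen by the large loss of DNA methylation of a 1000-bp tile in Gnai2 in Dnmt3a knockout LSK cells, so the LSK knockout comparison of these genes is given as a description with no test. Their C positions were all those with at least 10 reads from 1 kb before to 1 kb after the gene span in GRCm38. This gave 824 positions listed in any library, of 1961722 in all.

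Cxcl12 is secreted by stromal cells of the bone marrow and holds stem and progenitor cells there through Cxcr4, a receptor that signals through Gi proteins. The Gi alpha subunits pass the signal on to effectors, and Vav1 together with Rac1, Rac2 and Cdc42 links it to the actin cytoskeleton, adhesion and migration. S1pr1 also couples to Gi and guides cells out of tissues towards blood and lymph. Dnmt3a is a de novo DNA methyltransferase, and its loss in blood stem cells lowers methylation at many regions outside of promoters.

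Methylation was measured by enhanced reduced representation bisulfite sequencing, in which MspI cuts the DNA at CCGG and short fragments are bisulfite-converted and read. All mice were C57BL/6, carried a floxed Dnmt3a gene (Dnmt3a fl/fl), had 5 poly(I:C) injections and reached an age of 12 months. Knockout mice also carried Mx1-Cre, an interferon-inducible Cre that acts in blood cells and also in other tissues, and control mice lacked it. LSK cells (Lin- Sca1+ cKit+, the marrow fraction with the stem cells) gave 3 knockout libraries (1327, 1333 and 1334) and 3 control libraries (1326, 1330 and 1331). GMP cells (granulocyte-macrophage progenitors, Lin- Sca1- cKit+ CD34+ FcgR+) gave 2 knockout libraries (178 and 179) and 2 control libraries (346 and 349). GMP library 352 carries conflicting genotype labels and entered no comparison. No label ties a library to a mouse of its own, so p-values cover only the spread among these libraries, which may be technical.

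The LSK libraries held 157.3 M to 181.1 M (mega) of coverage, in reads summed over listed positions, and the GMP libraries 95.4 M to 109.7 M. Within Dnmt3a, 5 C positions were listed by every control library and by none of the 3 knockout LSK libraries, and are taken as the floxed segment. Picked by that rule, they are no check of the deletion in LSK. Knockout GMP library 178 listed 4 of them and library 179 listed 5, at a relative coverage of 27.9% and 53.3% of the control GMP mean. Library 1333 listed 118988 positions found in no other library, against 6313 to 35250 in the others, and the larger LSK differences are also given without it. In control libraries, Mpo and Ctsg, granulocyte enzyme genes, each had a tile lower in GMP than in LSK. These tiles were at 51.0% in GMP against 91.1% in LSK for Mpo (adjusted p = 0.00124) and at 52.3% against 90.5% for Ctsg (adjusted p = 0.00141, quasi-binomial model moderated with limma). Of the marker genes, 2 of 6 for GMP, 0 of 4 measured for LSK and 0 of 4 measured for other cell types had a tile lower in GMP. None had one higher. Of all tiles, 0.772% were lower and 0.113% higher. Of the other GMP markers, Csf1r was higher in GMP at its largest difference, at 91.0% against 86.2%, and Elane, Prtn3 and Fcgr3 were lower. Of the LSK markers, Hlf and Mecom were higher in GMP, by 18.7 and 12.1 points, and Procr and Meis1 lower. None of these passed the threshold of adjusted p and 20 points.

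The measured gene starts of this set were almost free of methylation, and the RefSeq promoters of Gnai3, Cxcr4 and Vav1 (GRCm38.p6, from 250 bases before to 50 after the start) show which CpGs stood behind that reading. Of the 10 genes, 6 had a promoter in the table: Gnai1, Gnai3, Cxcr4, Cxcl12, Cdc42 and Vav1. CpGs measured in all 10 grouped libraries are in capitals below, each sequence 5′ to 3′ on the strand of its gene. The Gnai3 promoter lies on the minus strand at chr3:108146103-108146402, the Cxcr4 promoter on the minus strand at chr1:128592250-128592549 and the Vav1 promoter on the plus strand at chr17:57278850-57279149.
Gnai3: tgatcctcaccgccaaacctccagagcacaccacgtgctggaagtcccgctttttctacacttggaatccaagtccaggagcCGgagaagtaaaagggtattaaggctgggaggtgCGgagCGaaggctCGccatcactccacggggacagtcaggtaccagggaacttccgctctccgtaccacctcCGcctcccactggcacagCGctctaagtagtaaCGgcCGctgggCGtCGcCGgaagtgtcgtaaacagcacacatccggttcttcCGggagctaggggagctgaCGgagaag
Cxcr4: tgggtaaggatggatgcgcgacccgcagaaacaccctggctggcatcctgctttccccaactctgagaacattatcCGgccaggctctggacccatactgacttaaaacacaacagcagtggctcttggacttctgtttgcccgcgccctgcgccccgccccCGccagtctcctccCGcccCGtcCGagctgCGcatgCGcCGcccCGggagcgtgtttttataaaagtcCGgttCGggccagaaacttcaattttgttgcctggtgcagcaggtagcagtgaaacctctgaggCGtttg
Vav1: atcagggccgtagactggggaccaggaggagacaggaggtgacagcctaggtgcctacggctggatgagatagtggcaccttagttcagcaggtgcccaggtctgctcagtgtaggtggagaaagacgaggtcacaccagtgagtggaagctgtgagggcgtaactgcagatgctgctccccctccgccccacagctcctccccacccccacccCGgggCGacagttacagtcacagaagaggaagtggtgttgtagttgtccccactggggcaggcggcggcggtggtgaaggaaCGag
Of the CpGs printed, 13 of 21 were measured in Gnai3, 12 of 20 in Cxcr4 and 3 of 11 in Vav1. The highest pooled level in any of the 10 libraries was 0.363% for Gnai3, 0.325% for Cxcr4 and 1.92% for Vav1. The 1.92% was in knockout LSK library 1333, and Vav1 stood at 0% in all 4 GMP libraries. The MspI word CCGG, which reads the same on both strands, occurs 4 times in the Gnai3 promoter, 3 times in that of Cxcr4 and once in that of Vav1, while 52.8% of the 32851 promoters of the table hold it at least once. The Cxcl12 promoter had no listed position.

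Within Gnai2, the largest loss lay in a stretch of the gene body. Gnai2 spans 21267 bp on chromosome 9 (107614125 to 107635391), and the tile of the largest LSK difference runs from 107630001 to 107631000, 4391 bp inside the upper-coordinate end of the gene and 15876 bp from the lower end. No other RefSeq gene overlaps it. It holds 4 C positions that all 10 libraries list, at a mean of 112 reads per position in LSK and 108 in GMP.

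In LSK, this tile had a methylation level of 10.3%, 18.0% and 10.2% in the knockout libraries, against 75.6%, 73.7% and 74.4% in the control libraries. Every knockout library was far below every control library, and each group was narrow. The group means were 12.8% ± 4.49 in knockout and 74.6% ± 0.969 in control (SD, n = 3 each), and the pooled levels differed by -61.7 percentage points. Without library 1333 the difference was -64.2 points. Libraries 1327 (knockout) and 1326 (control) list 1422 and 1470 Y-chromosome positions and the other 4 LSK libraries 211 to 229. The tile was low in knockout and high in control within both sets, of which the first has 1 library per group. The part of this Y-chromosome difference in the tile levels was not tested.

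In GMP, the same tile was lower in knockout too. The choice of genes rests on the LSK loss but was made with earlier results of these data known. The GMP test may therefore not be independent of it. The tile stood at 38.2% and 45.3% in the knockout GMP libraries, against 78.0% and 80.3% in the control GMP libraries. The groups did not overlap, and both knockout GMP libraries lay between the knockout LSK and the control values. The means were 41.7% ± 4.99 in knockout and 79.1% ± 1.62 in control (SD, n = 2 each), and the pooled levels differed by -37.9 points. The quasi-binomial model with its dispersion moderated by limma over all tiles gave an adjusted p of 0.567 (Benjamini-Hochberg over 107150 tiles). That fit called no tile in GMP, although 9338 tiles had an unadjusted p under 0.05. With the prior fitted only on tiles at 5% to 95% methylation, an alternative listed beside the first fit, the adjusted p was 0.00143. The exact permutation test over libraries (two-sided) gave p = 0.33, the smallest that 2 libraries against 2 allow. The Gnai2 difference in GMP is larger than the spread of the libraries, but whether it passes a test across all tiles depends on the prior. The Dnmt3a positions taken as the floxed segment were picked because no knockout LSK library listed them. In GMP their coverage was 27.9% of the control GMP mean in knockout library 178 and 53.3% in knockout library 179. The part of this coverage in the smaller GMP difference was not tested.

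All 4 C positions of the tile were lower in knockout, to different depths. The forward-strand position 107630198 averaged 5.63% ± 3.27 in knockout LSK and 39.6% ± 16.5 in control LSK (SD, n = 3 each), and 15.8% ± 4.72 in knockout GMP against 36.5% ± 3.27 in control GMP (SD, n = 2 each). On the reverse strand, position 107630273 averaged 7.95% ± 5.97 in knockout LSK and 83.7% ± 1.48 in control LSK, and 37.6% ± 4.91 in knockout GMP against 87.8% ± 9.99 in control GMP. Position 107630277 averaged 5.08% ± 5.62 in knockout LSK and 76.0% ± 0.835 in control LSK, and 44.1% ± 9.61 in knockout GMP against 75.5% ± 13.9 in control GMP. At each of these, the groups did not overlap in either cell type. Position 107630310 kept the most methylation, at 29.3% ± 7.61 in knockout LSK against 84.6% ± 6.10 in control LSK, and at 60.8% ± 0.414 in knockout GMP against 89.8% ± 2.90 in control GMP. The 3 reverse-strand positions lie within a single read length and had nearly the same coverage, so they share reads and are not independent measurements.

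**Figure D1:**
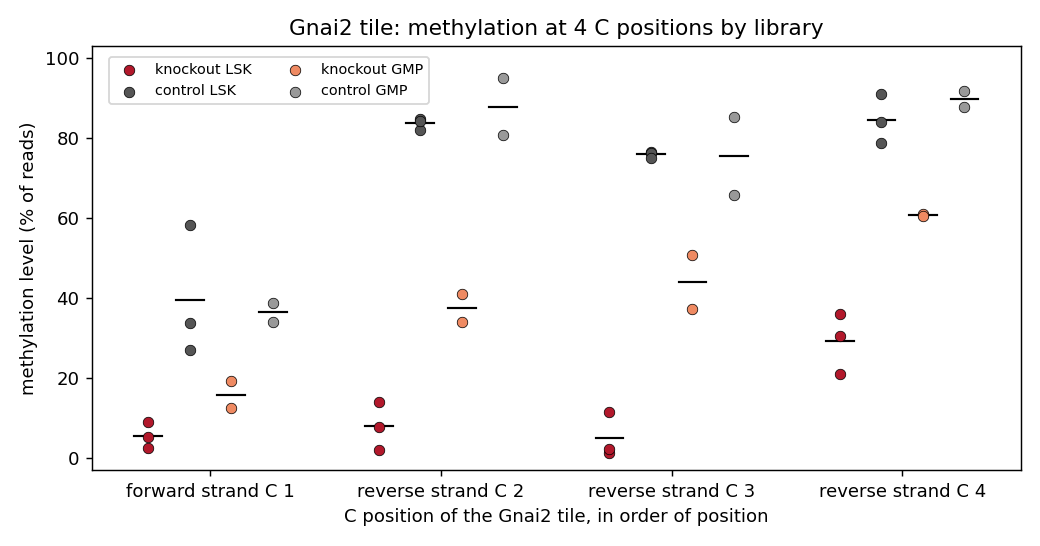
Methylation level (vertical axis, percent of reads) of the 4 C positions of the Gnai2 tile in each library, with knockout left of control within each cell type and a black line at each group mean. The knockout LSK libraries were lowest at every position, and position 4 kept the highest level, 29.3% on average in knockout LSK.

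Beside this tile, positions towards the lower end also differed in LSK. The single position 107628592 stood at 18.2%, 20.4% and 21.9% in knockout LSK against 56.8%, 52.7% and 56.1% in control LSK, and at 39.2% and 38.5% in knockout GMP against 70.5% and 47.1% in control GMP. Nearer to the tile, position 107629001 stood at 36.4%, 10.7% and 0% in knockout LSK against 53.8%, 84.6% and 54.5% in control LSK, again without overlap, at 11 to 29 reads. In GMP its groups overlapped, at 50.0% and 29.3% in knockout against 54.5% and 44.8% in control, and those of its neighbour 107629015 overlapped in both cell types. The lower levels in knockout LSK reached beyond the tile. The tile of position 107628592, from 107628001, also has positions with low levels, and stood at 9.57%, 7.76% and 7.96% in knockout LSK against 23.0%, 23.0% and 26.2% in control LSK, a pooled difference of -15.6 points. In GMP that tile overlapped between groups, at 12.1% and 16.7% in knockout and 16.3% and 23.2% in control.

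On the other side, position 107631949 stayed methylated in LSK, at 90.8%, 96.3% and 88.2% in knockout against 89.6%, 94.7% and 98.8% in control. Position 107632081 did too, at 84.1%, 73.0% and 88.2% in knockout LSK against 83.9%, 91.0% and 86.6% in control LSK. Both positions had overlapping groups in LSK. In GMP neither overlapped: position 107631949 stood at 93.7% and 90.6% in knockout against 98.5% and 98.97% in control, and position 107632081 at 78.1% and 83.0% in knockout against 89.2% and 90.1% in control. Near the upper end, the tiles from 107633001, 107634001 and 107635001 had group means between 0% and 0.815% in every group. The remaining tile, from 107626001, was low as well in LSK, at 0.562%, 2.27% and 1.69% in knockout against 6.19%, 2.86% and 6.14% in control. In GMP it stood at 1.58% and 3.23% in knockout against 1.16% and 19.05% in control, where control library 349 alone was high.

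**Figure D2:**
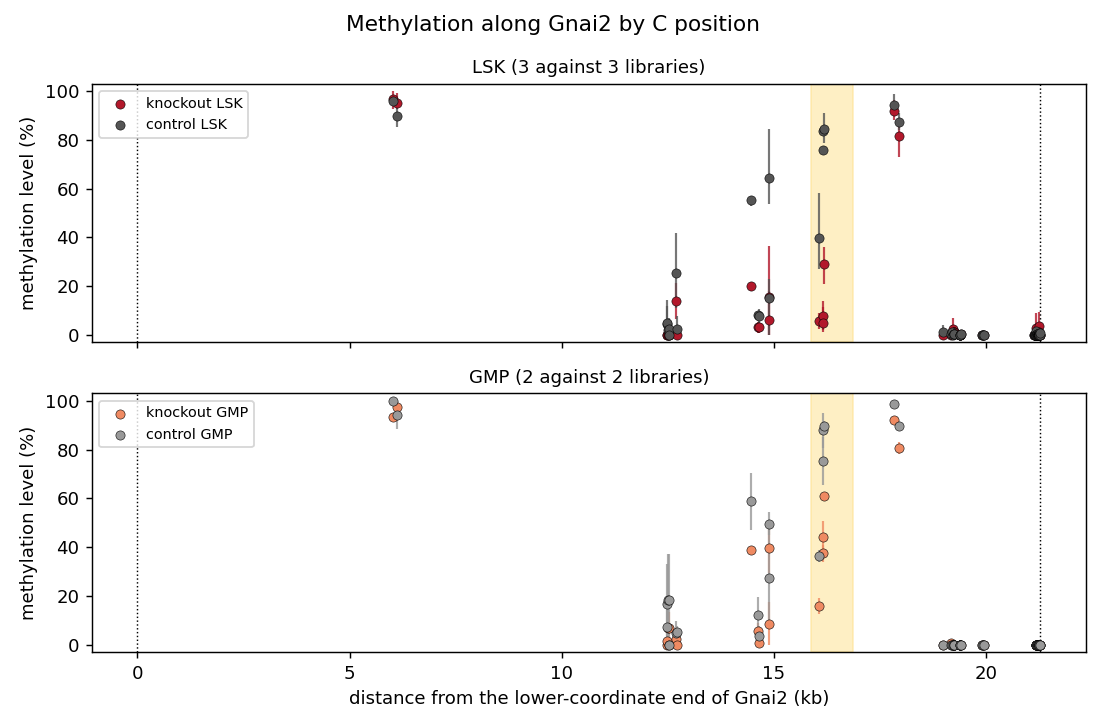
Methylation level (vertical axis, percent) of the C positions along Gnai2 against the distance from the lower-coordinate end of the gene (horizontal axis, kb), for positions that every library of the panel lists. Points are group means, vertical lines run from the lowest to the highest library, dotted lines mark the gene ends and the shaded band is the tile that averaged 12.8% in knockout LSK and 74.6% in control LSK.

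Over the whole window of Gnai2, gene span and 1 kb on each side, the difference shrank. The window stood at 12.2%, 7.30% and 12.6% in knockout LSK against 16.9%, 25.4% and 12.7% in control LSK, with a pooled difference of -7.82 points. That difference was -5.64 points without knockout library 1333 and -4.47 points without control library 1330. In GMP it stood at 20.2% and 21.6% in knockout against 28.4% and 26.04% in control, a difference of -6.05 points (adjusted p = 0.365, quasi-binomial model moderated with limma, and 0.344 with the other prior). The GMP groups did not overlap, but the window did not pass the test under either prior, and the difference was -3.40 points without knockout library 178. With the tile left out, the window averaged 10.6% ± 3.56 in knockout LSK and 13.4% ± 3.64 in control LSK (SD, n = 3 each). In GMP it then averaged 17.5% ± 0.755 in knockout and 18.3% ± 2.36 in control (SD, n = 2 each). These rests differed by less than the spread between libraries in both cell types.

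Tiles most like that of Gnai2 over the 10 grouped libraries lay in Dok2, Pou2f2, Cbfa2t3, Neurl1b and Gse1, by the root mean square difference of level among 100144 tiles, which is a description. The Dok2 tile (Dok2 is an adaptor that dampens kinase signalling) was the closest at 7.02 points. It averaged 18.8% in knockout LSK and 72.6% in control LSK, and 43.3% in knockout GMP against 77.0% in control GMP. The tile of Pou2f2, a lymphoid transcription factor, was at 7.30 points and averaged 20.3% in knockout LSK and 71.6% in control LSK, and 43.3% in knockout GMP against 83.6% in control GMP. The tile of Cbfa2t3, a transcriptional corepressor of blood progenitors, was at 7.64 points, and those of Neurl1b and Gse1 were at 8.80 and 9.49 points. All 5 were picked for these levels, so their likeness to Gnai2 is no finding.

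The other Gi alpha subunits showed no such stretch where they were covered. Gnai1 on chromosome 5 had 3 methylated gene-body tiles in LSK and 2 in GMP. Its tile from 18272001 stood at 89.7%, 73.7% and 88.3% in knockout LSK against 94.8%, 87.9% and 76.1% in control LSK, and at 87.0% and 85.1% in knockout GMP against 90.9% and 91.2% in control GMP. The LSK groups overlapped, and the GMP groups did not, at a pooled difference of -5.16 points. The Gnai1 start tile, from 18360001, averaged 0.455% in knockout LSK and 0.438% in control LSK, and 0.424% in knockout GMP against 0.283% in control GMP. Gnai3 on chromosome 3 had only tiles at its start, and the one from 108145001 averaged 0.819% ± 0.679 in knockout LSK and 0.474% ± 0.0668 in control LSK (SD, n = 3 each). In GMP it averaged 0.110% in knockout and 0.157% in control. The body of Gnai3 had no tile with 3 or more C positions, so a loss like that in Gnai2 was not measurable there.

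Cxcr4, the receptor for Cxcl12, was unmethylated at its start on chromosome 1 and methylated in 1 tile of its body. The body tile, from 128589001, stood at 78.8%, 81.3% and 86.3% in knockout LSK against 86.6%, 89.8% and 91.1% in control LSK, and at 69.6% and 62.1% in knockout GMP against 75.6% and 84.6% in control GMP. Every knockout library was below every control library in both cell types, and both gaps were small beside that of Gnai2. The pooled differences were -7.40 points in LSK (-7.14 points without library 1333) and -14.6 points in GMP, the lowest of the GMP tiles outside Gnai2. Without control library 349 the GMP difference was -9.50 points. In GMP it did not pass the test under either prior: the smallest adjusted p of the genes other than Gnai2 was 0.567 (quasi-binomial model moderated with limma) and 0.327 with the other prior. The 4 other tiles of Cxcr4, start included, averaged at most 2.18% in any group.

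Cxcl12, the ligand, lies on chromosome 6 and showed no loss in LSK. Its gene-body tile from 117176001 stood at 73.9%, 64.5% and 70.2% in knockout LSK against 62.8%, 69.98% and 67.8% in control LSK, and at 73.4% and 60.3% in knockout GMP against 54.9% and 54.4% in control GMP. The LSK groups overlapped and the knockout GMP libraries were the higher ones, by 13.8 points in pooled level, which did not pass the test. The GMP difference was 5.56 points without knockout library 178, and the LSK difference was 2.89 points with and 5.77 points without library 1333. The neighbouring tile from 117177001 went the other way in GMP, at 80% and 85.5% in knockout against 91.7% and 91.8% in control (-9.34 points), and the tiles from 117178001 and 117169001 were lower in knockout GMP without overlap as well, with differences of -2.47 and -1.79 points. None of these passed the test (adjusted p from 0.567 to 0.620, quasi-binomial model moderated with limma). The tiles around the start averaged at most 2.48% in any group. S1pr1 on chromosome 3 had an intermediate tile from 115712001, at 22.0%, 16.0% and 19.5% in knockout LSK against 22.2%, 24.4% and 16.7% in control LSK, and at 27.7% and 27.4% in knockout GMP against 19.6% and 29.1% in control GMP. Its groups overlapped in both cell types, and its tiles at the upper-coordinate end averaged at most 0.634%.

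Among the small GTPases, Rac2, the blood-restricted member, was the one with methylated tiles. Its tile from 78568001 on chromosome 15 stood at 76.6%, 66.5% and 73.2% in knockout LSK against 89.3%, 85.0% and 82.6% in control LSK, and at 75.4% and 78.0% in knockout GMP against 90.9% and 86.2% in control GMP. Here too the knockout libraries were lower in both cell types without overlap, by -13.1 points in LSK, -10.4 points there without library 1333, and -11.6 points in GMP. The GMP difference did not pass the test (adjusted p = 0.567, quasi-binomial model moderated with limma, and 0.590 with the other prior). The tile from 78559001, at the lower-coordinate end of Rac2, moved the other way in GMP, at 67.6% and 63.6% in knockout against 60.7% and 48.1% in control, a pooled difference of 11.9 points that did not pass the test. It was 4.84 points without control library 349 and 17.4 points without control library 346. In LSK its groups overlapped, at 60.4%, 64.6% and 49.1% in knockout and 54.0%, 66.9% and 72.2% in control. The tile from 78571001, near the upper-coordinate end of Rac2, averaged 16.7% ± 3.46 in knockout LSK and 17.2% ± 4.86 in control LSK (SD, n = 3 each). Rac1 and Cdc42, which are used by nearly all cells, were measured only in unmethylated tiles. The tiles of Rac1 averaged at most 0.320% in any group, and the single tile of Cdc42 averaged 0.255% in knockout LSK and 0.176% in control LSK, and 0.105% in knockout GMP against 0.165% in control GMP.

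Vav1 on chromosome 17 was unmethylated at its start and methylated in the gene body. Its body tile from 57284001 stood at 84.9%, 79.9% and 86.5% in knockout LSK against 90.9%, 94.4% and 95.5% in control LSK, with no overlap and a pooled difference of -10.4 points (-8.10 points without library 1333). In GMP the same tile overlapped, at 80.1% and 88.1% in knockout against 84.1% and 92.8% in control. The largest GMP difference of Vav1 was in the tile from 57302001, at 90.4% and 88.6% in knockout against 99.4% and 93.8% in control, -7.08 points in pooled level. That difference did not pass the test, and was -4.05 points without control library 346. The start tile, from 57279001, stood at 0.433%, 2.11% and 0.159% in knockout LSK, where library 1333 was the high one, against 0.158%, 0.127% and 0.198% in control LSK. In GMP, Vav1 lies in a 5-Mb stretch with 83 positions that every library of one group covered at least 20 times and no library of the other group listed, against 3778 positions that all 4 listed. None of the 83 is inside the Vav1 window. No other gene of the set lies in a stretch with as high a share of such positions. The stretch of Cdc42 has 20 of them in GMP, against 9465 that all 4 libraries listed, and 1 is inside the Cdc42 window. The part of these positions in the GMP values of Vav1 and Cdc42 was not tested.

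**Figure D3:**
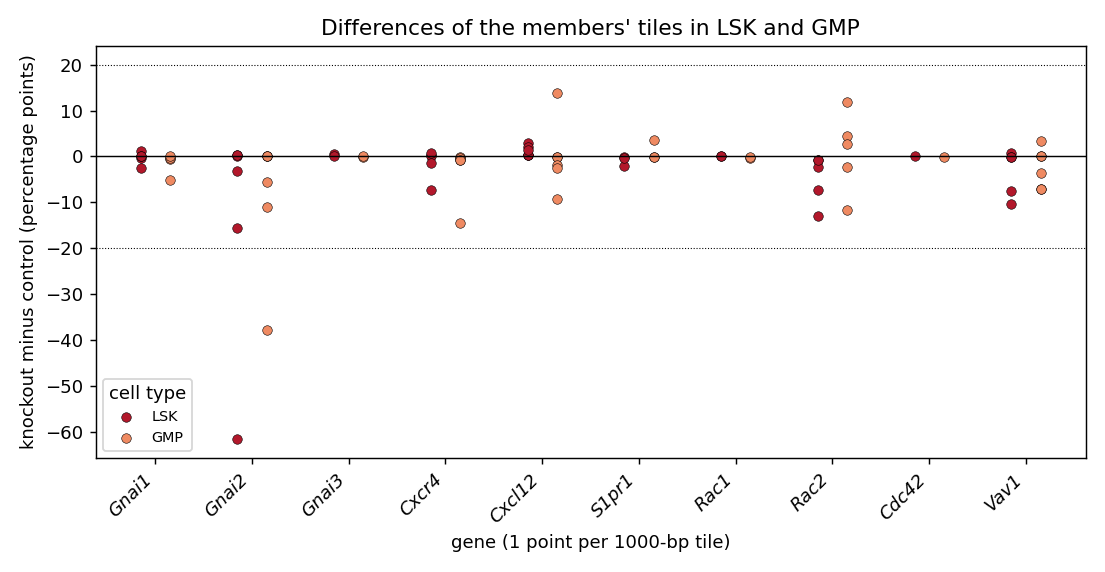
Pooled knockout minus control difference (vertical axis, percentage points) of every tile of the 10 genes, with LSK left and GMP right for each gene and dotted lines at 20 points in either direction. The Gnai2 tile stood at -61.7 points in LSK and -37.9 points in GMP, and the lowest tiles of the other genes at -13.1 points in LSK and -14.6 points in GMP.

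Counted over the set, 40 tiles of the 10 genes were tested in each cell type. In LSK, 0.874% of all 107074 tiles passed an adjusted p of 0.05 with a difference of at least 20 points. The Gnai2 tile is 1 of these by the choice of the set, so its place there is no test. In GMP, 0 of 40 passed in the quasi-binomial model moderated with limma, where 0% of all tiles passed, and 8 had an unadjusted p under 0.05, as had 9338 of all 107150 tiles. Limma on logit levels called 0 as well. With the prior fitted on tiles at 5% to 95%, 1 of 40 passed in GMP, that of Gnai2, where 0.275% of all tiles passed. The median GMP difference was -0.211 points over the 34 tiles of the genes other than Gnai2 and -0.345 points over all tiles.

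Of the 40 GMP tiles, 12 had every knockout library below every control library, among them 1 of Gnai2, and 5 had every one above. Such non-overlap was seen below in 25.9% and above in 11.3% of all GMP tiles, so these counts of 40 tiles were near the background. In LSK, 8 of 40 had every knockout library below and 2 above, against 15% and 3.38% of all LSK tiles. The 8 include 3 of Gnai2, for whose LSK loss the set was chosen, so this count is no test. Levels split the tiles into classes. In GMP, 21 tiles of 9 genes had control means under 5%, and their differences ran from -1.79 to 0.124 points. The 7 tiles with control means of 5% to 80%, in Gnai2 and 3 other genes, ran from -37.9 to 13.8 points, and the 12 tiles over 80% from -14.6 to 4.53 points. In LSK the corresponding ranges were -1.36 to 0.721, -61.7 to 2.89 and -13.1 to 2.15 points.

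As whole gene windows, no gene of the set passed the test in GMP. In the quasi-binomial model moderated with limma 0 of 10 windows passed, where 0% of 24041 windows passed. In that model 1 window, that of Gnai2, had an unadjusted p under 0.05, as had 2661 of all windows. With the other prior 0 of 10 passed as well, where 0.245% of all windows passed. Every knockout library was below every control library in 4 of the 10 windows in GMP and above in 1, against 24.2% and 17.5% of all GMP windows. In LSK, 1 of 10, that of Gnai2, was below without overlap, against 12.7% of all LSK windows. That window holds the tile by which the set was chosen, so its place is no test. Its gap was narrow, with knockout library 1334 at 12.57% and control library 1331 at 12.70%. The windows ranged from that of Rac1, at 0.0399% ± 0.0133 in knockout GMP and 0.229% ± 0.0481 in control GMP, to that of Rac2, at 52.2% ± 1.02 in knockout GMP and 51.9% ± 1.24 in control GMP (SD, n = 2 each). In LSK the Rac2 window averaged 48.3% ± 6.84 in knockout and 54.7% ± 3.63 in control, and the Vav1 window 38.2% ± 2.26 in knockout and 40.1% ± 0.468 in control (SD, n = 3 each). Both pairs of LSK groups overlapped.

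**Figure D4:**
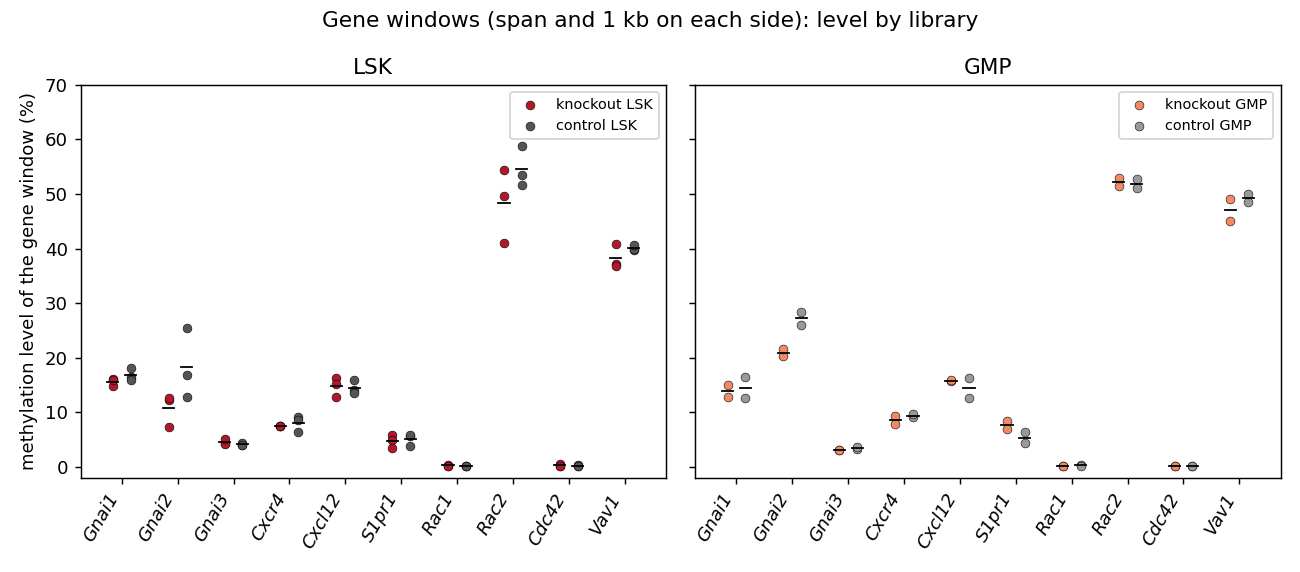
Methylation level (vertical axis, percent) of the window of each of the 10 genes in every library, LSK on the left and GMP on the right, with knockout left of control and a black line at the group mean. In GMP the Gnai2 window averaged 20.9% in knockout and 27.2% in control, and the windows of Rac1 and Cdc42 stayed under 1% in every library.

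Between the cell types without knockout, no tile outside Gnai2 passed the test, a count near the background share, so it is no result about the set. In control libraries 39 tiles of the 10 genes could be compared between GMP and LSK. None of the 33 outside Gnai2 passed the quasi-binomial model moderated with limma, where 0.884% of all 104839 tiles passed. In that model 4 of the 33 had an unadjusted p under 0.05, as had 14280 of all tiles. With the other prior, 0 passed, where 1.04% of all tiles did. The differences of the 33 tiles ran from -12.6 to 4.72 points. Every control GMP library was below every control LSK library in 9 of them and above in 2, against 18.1% and 14% of all tiles. The body tile of Cxcr4 stood at 73.1% and 82.9% in control GMP against 86.6%, 89.8% and 91.1% in control LSK, -10.7 points in pooled level, and its adjusted p of 0.209 (quasi-binomial model moderated with limma) was the smallest among them. The Cxcl12 tile from 117176001 stood at 54.9% and 54.4% in control GMP against 62.8%, 69.98% and 67.8% in control LSK, again without overlap. The Gnai2 tile stood at 78.0% and 80.3% in control GMP against 75.6%, 73.7% and 74.4% in control LSK, and was not tested, since its control LSK level entered the choice. The GMP and LSK libraries also differ in depth and in their series of library numbers, which cannot be told apart from the cell type. Control GMP libraries 346 and 349 list 1226 and 1314 Y-chromosome positions. Control LSK libraries 1326, 1330 and 1331 list 1470, 211 and 212. The part of this in the differences was not tested.

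Beyond the 10 genes, 72 further genes of the same signalling pathways were followed, a list drawn up with earlier results of these data known. Counts over this list are therefore a description and no test of it. In LSK, 10 of their 473 tiles were lower in knockout and 0 higher in the quasi-binomial model moderated with limma, where 0.871% of all tiles were lower and 0.0028% higher. The median LSK difference was -0.473 points over these 473 tiles and -0.373 points over all tiles. The 10 tiles lay in 7 genes. By list, 4 were among the 74 tiles of G-protein regulators and 1 among the 115 of G-protein subunits. The other 5 lay in Prex1, Dock8 and Tiam1. None lay among the 10 tiles of chemokine receptors, the 35 of sphingosine-1-phosphate genes or the 72 of effectors.

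Prex1, an exchange factor for Rac that is activated by G-protein beta-gamma subunits, held the largest loss and a second tile. The first stood at 30.0%, 23.7% and 17.1% in knockout LSK against 65.1%, 62.0% and 69.2% in control LSK, a difference of -42.2 points. Dock8, an exchange factor for Cdc42 in blood cells, had a tile at 11.9%, 12.7% and 8.62% in knockout LSK against 36.9%, 41.7% and 49.2% in control LSK (difference -31.5 points), and a second that fell by 26.2 points. Gng7, a G-protein gamma subunit, stood at 38.1%, 31.2% and 29.3% in knockout LSK against 58.9%, 64.6% and 64.7% in control LSK. All 3 of these genes had non-overlapping groups at each tile named. The tiles were picked for their difference in these same libraries, so this is no further support. Of all LSK tiles, 15% had every knockout library below every control library.

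The remaining calls lay in 4 genes. Grk2, a kinase that phosphorylates active receptors, had a tile at 39.2%, 38.6% and 26.1% in knockout LSK against 62.5%, 59.4% and 53.9% in control LSK. Arrb1, a beta-arrestin, stood at 13.3%, 8.65% and 6.36% in knockout LSK against 32.0%, 26.7% and 30.2% in control LSK. Rgs3, which speeds up the shut-off of G-protein alpha subunits, had 2 tiles that fell by 20.1 and 21.1 points. Tiam1, an exchange factor for Rac, stood at 12.8%, 21.6% and 9.15% in knockout LSK against 35.6%, 40.8% and 29.1% in control LSK. None of these groups overlapped, in tiles picked for their difference in the same libraries.

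**Figure D5:**
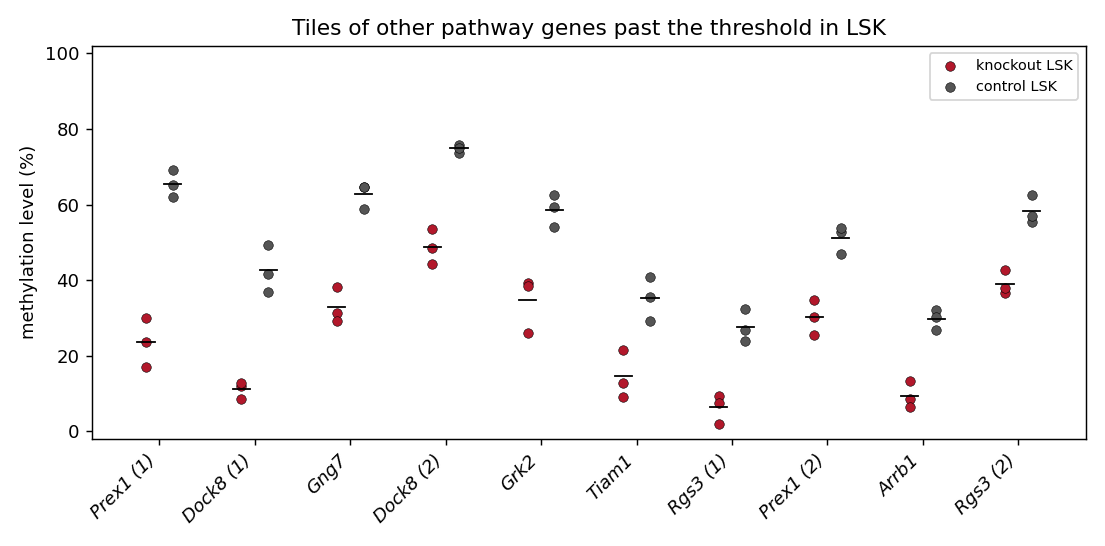
Methylation level (vertical axis, percent) in each LSK library of the 10 tiles of further pathway genes that passed the threshold, ordered from the largest loss on the left, with knockout left of control and a black line at the group mean. The first Prex1 tile averaged 23.6% in knockout and 65.4% in control.

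In GMP, 0 of the 479 tiles of these genes passed under either prior of the quasi-binomial model. Of all tiles, 0% passed with the first and 0.275% with the other. With the first prior, 50 of the 479 had an unadjusted p under 0.05, as had 9338 of all 107150 tiles. The median GMP difference of the 479 tiles was -0.355 points. No window of the 64 measured genes passed in either cell type, where 0.362% of all LSK windows and 0% of all GMP windows passed, and 7 in LSK and 10 in GMP had an unadjusted p under 0.05, as had 2265 of all 24057 LSK windows and 2661 of all 24041 GMP windows. In control libraries, 8 of 462 tiles were lower in GMP than in LSK and 0 higher, where 0.772% of all tiles were lower and 0.113% higher. The 8 tiles lay in Gnas, Gnaq, Gna12, Gng7, Pik3r5, Plcb3 and Tiam1. The Tiam1 tile, another one than in the knockout comparison, stood at 46.0% and 32.0% in control GMP against 90.9%, 89.3% and 90.4% in control LSK (difference -52.1 points). The tile of Gna12, a G-protein alpha subunit, stood at 64.7% and 65.7% in control GMP against 93.6%, 95.3% and 94.1% in control LSK. Both were far apart between the cell types relative to the spread within each, but were picked for that difference in the same libraries.

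These values are DNA methylation levels, and the RNA of the genes was not analysed here.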

How the data were processed

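Methylation was measured in sorted LSK and GMP by enhanced reduced representation bisulfite sequencing (fragments of 150 to 400 bp, single-end reads of 50 bp, per the labels' protocols). The submitters' processing notes name Bismark, mm10 and GRCm38, with neither version nor role. Each deposited table gives, per the file headers, a strand and a count of reads (coverage) for each C position, with the percent that read as C or as T. The lowest coverage listed is 10, so an unlisted position may still have had reads.

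Coverage times the deposited percent gave whole numbers of methylated reads at every position, within the rounding of the deposited percent (0.0005 percentage points). Reads were summed per library over 1000-bp tiles (3 or more C positions in every library fitted) and over gene windows (RefSeq span and 1 kb on each side, 5 or more C positions). Knockout and control were compared in a quasi-binomial logistic model with dispersions moderated by limma 3.58.1 in R 4.3.3, and p-values were adjusted by Benjamini-Hochberg over all features. A tile was called at an adjusted p under 0.05 and 20 points, a window at 10 points. In GMP the fit over all tiles found no call, and in data simulated on the same tiles it recovered none of the losses that the prior fitted on features at 5% to 95% recovered. The simulation gave all tiles the same assumed spread between libraries. For control GMP against control LSK it also recovered 0 losses in the first fit, although that fit called 927 tiles of the real data. It therefore cannot tell how many real losses the first fit missed, or which prior is right. A GMP count of 0 in the first fit is no sign that levels were alike. The coverage per library is given as summed reads. Intervals cover counting error at most, since a read is counted at each of its C positions and reads carry no molecular identifiers.

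Groups come from titles and genotype fields. All 10 genes are named, with the tiles of their largest LSK and GMP differences and at the gene start, and every called tile of the further pathway genes. The genes and lists were chosen with earlier results of these data known. The replicate numbers are unique to each library and pair none of them. Other coverage minimums, priors, tile positions and omitted libraries were tried. The count of 1 list of pathway genes is not reported here.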

Additional observations from a re-analysis of the deposited data

Results flagged for a closer look

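A tile of Rac1 starting at 143528001 on chromosome 5 was higher in every knockout LSK library than in every control LSK library, with a pooled difference of 0.1997 points, and lower in every knockout GMP library than in every control GMP library, with a difference of -0.0332 points. All of its levels were under 1%, and the difference between the cell types was not tested.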

How the results depend on the processing

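Some alternatives could not change their outcome. For LSK values only the difference was compared, which neither the prior nor moderation can change. In GMP every fit but that with the prior on features at 5% to 95% called 0 tiles and windows. The setting of 5 or more C positions leaves out the Gnai2 tile, and tiles shifted by 500 bp hold the same positions of it. There were 241 alternatives for 22 values of single tiles and windows. Of these, 233 kept their side of the threshold or, untested, moved by less than the spread between replicates. The Gnai2 tile in GMP kept its direction in all of them: the prior fitted on features at 5% to 95% left the difference at -37.9 points and moved its adjusted p to 0.00143, the unweighted mean of C positions gave -32.8 points, and leaving out a library gave -41.2 to -34.1 points (adjusted p from 0.00143 to 0.918 over all alternatives). Signs turned beyond that in GMP tiles of 2 other genes: Gnai3 at 0.0565 points with a coverage minimum of 20, and S1pr1, at 3.55 points, with -1.55 points without control library 346, -0.239 points unweighted and up to 7.89 points without control library 349. In LSK, without 1 library, small differences also changed sign within the spread, up to 2.71 points for Gnai1 and down to -0.0184 for Gnai3 and -0.0526 for Cdc42. The Rac2 tile from 78559001 in GMP shrank to 2.81 points unweighted. Of the counts over all features, the 936 LSK tiles became 533 with 5 or more C positions per tile and 384 to 1287 without a library (451, 384 and 457 without control 1326, 1330 and 1331, 516 without knockout 1334). The 927 tiles between control GMP and LSK became 438 with 5 or more C positions and 271 to 986 without a library (300, 271, 289 and 293 without 346, 349, 1330 and 1331). The 87 LSK windows became 50 on the gene span alone and 0 to 113 without a library (at most 1 without any of the 6 but 1327). Without moderation of the dispersion each of these 3 counts was 0. In GMP the counts of 0 became 295 tiles and 59 windows with the other prior, and stayed 0 to 0 without any 1 library. The causes were not tested, beyond the smaller number of tiles or libraries. No paired analysis was possible because the groups share no replicate numbers.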

Other observations

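GMP library 352, whose title and genotype field disagree, had a level of 4.54% at the Gnai2 tile, 31 methylated of 683 reads summed over 4 C positions. The 95% Wilson interval of 3.22% to 6.37% takes these counts as independent. Since the reverse-strand positions share reads, it is too narrow even for counting error. The level is below all 10 grouped libraries, whose lowest was 10.2%. Its Cxcr4 body tile from 128589001 stood at 65.9%, its Rac2 tile from 78568001 at 60.1% and its Vav1 tile from 57284001 at 78.4%. Its start tile of Vav1 was at 0%.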
